A study of Danio rerio with 6 samples.

Results

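Collagen genes were taken as the Ensembl rows whose symbol starts with col, a chain type, the letter a and a chain number, and 55 rows of the 32520 Ensembl genes met this rule. They carried 53 symbols, since col6a3 and col19a1 each had 2 rows. Of the 55 rows, 38 had at least 10 counts in at least 3 of the 6 libraries and are called measured here. A further 8 had counts but too few, and 9 had 0 counts in every library.

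The series compared polyadenylated RNA of zebrafish (Danio rerio) cells enriched as GFP-positive from Tg(mpx:eGFP) embryos on day 2, at 48 hours post-fertilisation. In this line the promoter of mpx, the myeloperoxidase gene of neutrophils, drives green fluorescent protein, and the labels call the cells neutrophils. The znf711 MO group comprised 3 libraries from embryos of the reporter line given a morpholino, an antisense oligonucleotide, against znf711, a zinc finger transcription factor gene, and labelled as znf711 knockdown. The control group comprised 3 libraries of the same reporter line, labelled as wild type and control. Since the design text speaks of znf711 mutants while the samples are labelled as morphants, groups were taken from the sample labels. The labels call the replicates biological. They do not state the treatment of the control embryos or the number of embryos per library, so p-values measure the spread between these libraries as labelled. The comparison asked how loss of Znf711 alters gene expression in neutrophils.

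Collagens are proteins built from 3 chains wound into a triple helix, in which glycine recurs at regular steps. Fibrillar collagens form the tensile fibres of skin, tendon, bone, cartilage and the notochord sheath, whereas type IV forms the sheet of basement membranes and other types decorate, link or anchor these structures. Fibroblasts, chondrocytes, osteoblasts, notochord cells, endothelium and basal epidermis are the usual sources, and neutrophils are better known for enzymes that cleave collagen than for making it.

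Total counts were 1629804 to 12093109 in the morpholino libraries and 7181804 to 9311439 in the control libraries. Morpholino replicate 1 was the shallowest library and stood apart, where 8041 Ensembl genes had counts, while the other 5 libraries had 13434 to 16074 such genes. A list of 12 neutrophil markers summed to 2667, 12237 and 17587 CPM (read counts relative to library size, with TMM, the trimmed mean of M-values, as scaling) in morpholino replicates 1 to 3, and to 1733, 12043 and 14467 CPM in control replicates 1 to 3. Replicate 1 of either group was thus the low one. The marker abcb9 was at 0 in all libraries, and the lysozyme gene lyz had 0 to 8 counts a library. The reporter's own gene mpx was at 559, 2731 and 5068 CPM in morpholino replicates 1 to 3 and at 520.4, 2926 and 2703 CPM in control replicates 1 to 3. The targeted gene znf711 had 1, 120 and 182 counts in morpholino replicates 1 to 3 and 348, 134 and 60 in control replicates 1 to 3. Scaled, these were 0.537, 11.2 and 17.7 CPM against 41.1, 16.5 and 9.79 CPM, and the groups overlapped. The log2 fold change of znf711 was -1.175 ± 1.29 (SE). A morpholino need not lower its target transcript. All levels below are TMM-scaled CPM unless named as FPKM, and all log2 fold changes set the morpholino group over the control group.

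Collagen transcripts were present in every library of these cells. They took 0.182%, 0.112% and 0.132% of the counts in morpholino replicates 1 to 3, and 0.255%, 0.156% and 0.120% in control replicates 1 to 3. Of the 38 measured genes, 22 had counts in all 6 libraries. Of the measured genes, 14 were at 0 in morpholino replicate 1, where a count of 0 allows up to 3 counts or 1.61 CPM. Control replicates 1 and 3 had 4 and 5 measured genes at 0, where the same limit came to 0.355 and 0.489 CPM, and the other 3 libraries had none. Such limits cover counting error only.

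Averaged over all 6 libraries, the type I genes col1a2 and col1a1b had the highest levels per transcript length. In the deposited FPKM values, which are per length, col1a2 averaged 24.6 ± 1.17 in morpholino libraries and 49.1 ± 23.4 in control libraries (SD, n = 3 each). The next gene, col1a1b, averaged 29.6 ± 6.33 FPKM and 39.5 ± 7.60 FPKM, and these spreads overlapped with those of col1a2. The type II gene col2a1b averaged 24.9 ± 14.4 FPKM in morpholino libraries and 18.1 ± 12.6 FPKM in control libraries. It was level with col1a2 in the morpholino group, and in morpholino replicate 1 it was the highest collagen gene, at 41.5 FPKM. Fibrillar collagens together made up 57.4% of the summed collagen CPM in the morpholino group and 63.4% in the control group. FACIT collagens, which attach to the surface of fibrils, made up 14.7% and 12.7%, and the beaded filament collagens 10.6% and 10.7%. At the low end of the measured genes stood col27a1b, col4a4 and col17a1a, with mean FPKM over the 6 libraries of 0.231, 0.345 and 0.446.

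**Figure D1:**
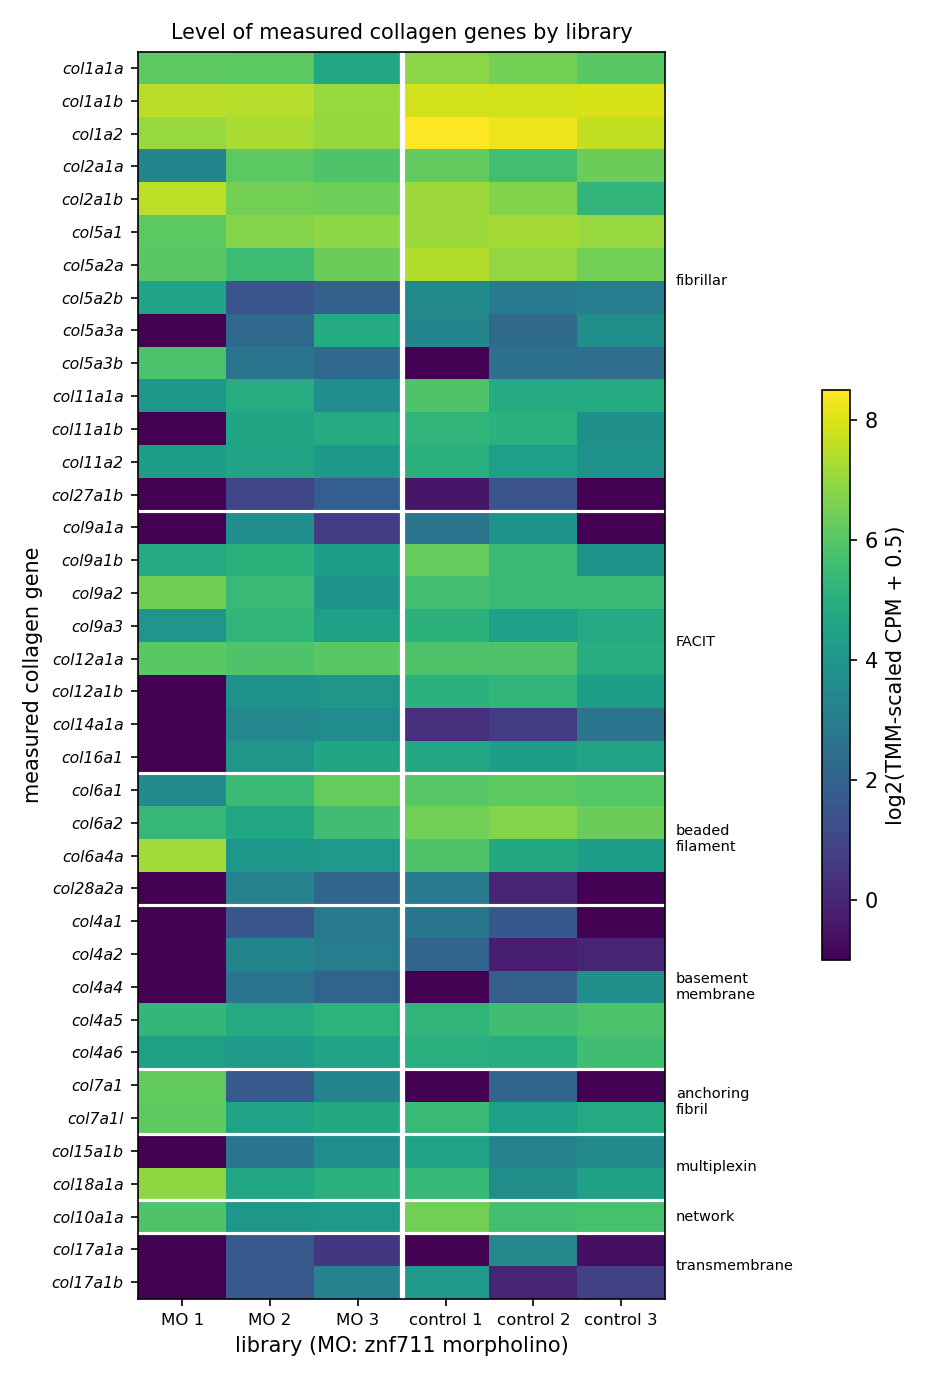
Level of the 38 measured collagen genes as log2(TMM-scaled CPM + 0.5), with 1 row per gene grouped by collagen class and 1 column per library, morpholino (MO) left of control. The dark cells of the first column are the 14 genes with 0 counts in morpholino replicate 1.

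No collagen gene passed the test between the groups. Of 37 genes tested by edgeR's quasi-likelihood test across all rows, 0 were higher and 0 lower at an adjusted p under 0.05, and over all 16637 rows tested the share called was 0% in each direction. The adjusted p was 0.9999 for each of the 37. At an unadjusted p under 0.05 there were 3 collagen genes, col1a2 and col6a2 with lower values in the morpholino group and col7a1 with higher ones. Over all rows, 0.463% had such a p with lower values and 0.583% with higher values. DESeq2 and limma-voom called 0 collagen genes, and DESeq2 gave 1 gene, col7a1, an unadjusted p under 0.05. DESeq2 called 0.67% of the rows it tested as higher and 0.167% as lower.

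The values of the collagen genes leaned lower in the morpholino group. In bulk RNA, fewer cells of a type and less RNA per cell cannot be told apart. In 22 of the 37 tested genes the log2 fold change was negative, or 59.5%, against 55.7% of all rows tested, so the share of negative values was close to the background. The median log2 fold change was -0.51, against -0.12 over all rows. All 3 morpholino libraries lay below all 3 control libraries in 7 genes, or 18.9%, where 5.35% of all rows did so. In 1 gene all 3 morpholino libraries lay above all 3 control libraries, where 2.09% of all rows did. These 8 genes were the type I genes col1a2 and col1a1b, the type V genes col5a1 and col5a2a, the type VI gene col6a2, the type IV gene col4a6 and the type XII gene col12a1b on the lower side, and col12a1a on the higher side. With scaling to library totals in place of TMM, the lower count was 3 of 37, or 8.11%, against 4.35% of all rows. Those 3 genes were col1a2, col6a2 and col4a6, while col1a1b, col5a1, col5a2a, col12a1b and col12a1a then overlapped between the groups. On the higher side 1 of 37, the type V gene col5a3b, then lay without overlap, where 2.57% of all rows did.

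The lean lay in the more abundant genes. Of the 19 tested collagen genes with a mean level of at least 28.5 CPM, the median of the tested collagen genes, 13 had a negative log2 fold change and 6 had groups that did not overlap on the lower side. Their median log2 fold change was -0.57. Among all 4863 rows tested at that level, 49.7% were negative, the median was 0.00 and 3.21% lay lower without overlap. Of the 18 collagen genes below that level, 9 were negative, with a median of -0.02, and 1 lay lower without overlap. Among all 11774 rows tested below that level, 58.2% were negative, the median was -0.25 and 6.23% lay lower without overlap. The scarcer collagen genes thus had a higher median than all rows of their range. This division was chosen after the values were seen and was given no test.

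The median of the collagen genes moved most without libraries of replicate 1. The median of all rows was -0.12 with no library left out. With single libraries left out, it moved most without morpholino replicates 2 and 3, and hardly without control replicate 1. Without morpholino replicate 1 the median log2 fold change of the collagen genes was -0.24 against -0.03 for all rows, and without control replicate 1 it was -0.25 against -0.11. Without morpholino replicate 2 it was -0.63 against -0.31, and without morpholino replicate 3 it was -0.52 against -0.37. Without control replicate 2 it was -0.51 against -0.12, and without control replicate 3 it was -0.44 against -0.14. The distance from all rows was thus also small without morpholino replicate 3. Without replicate 1 of both groups the median was -0.12 against 0.02. The count of genes lying lower without overlap was then 11 of 40, or 27.5%, where 14.5% of all rows did so, since fewer libraries separate more easily.

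**Figure D2:**
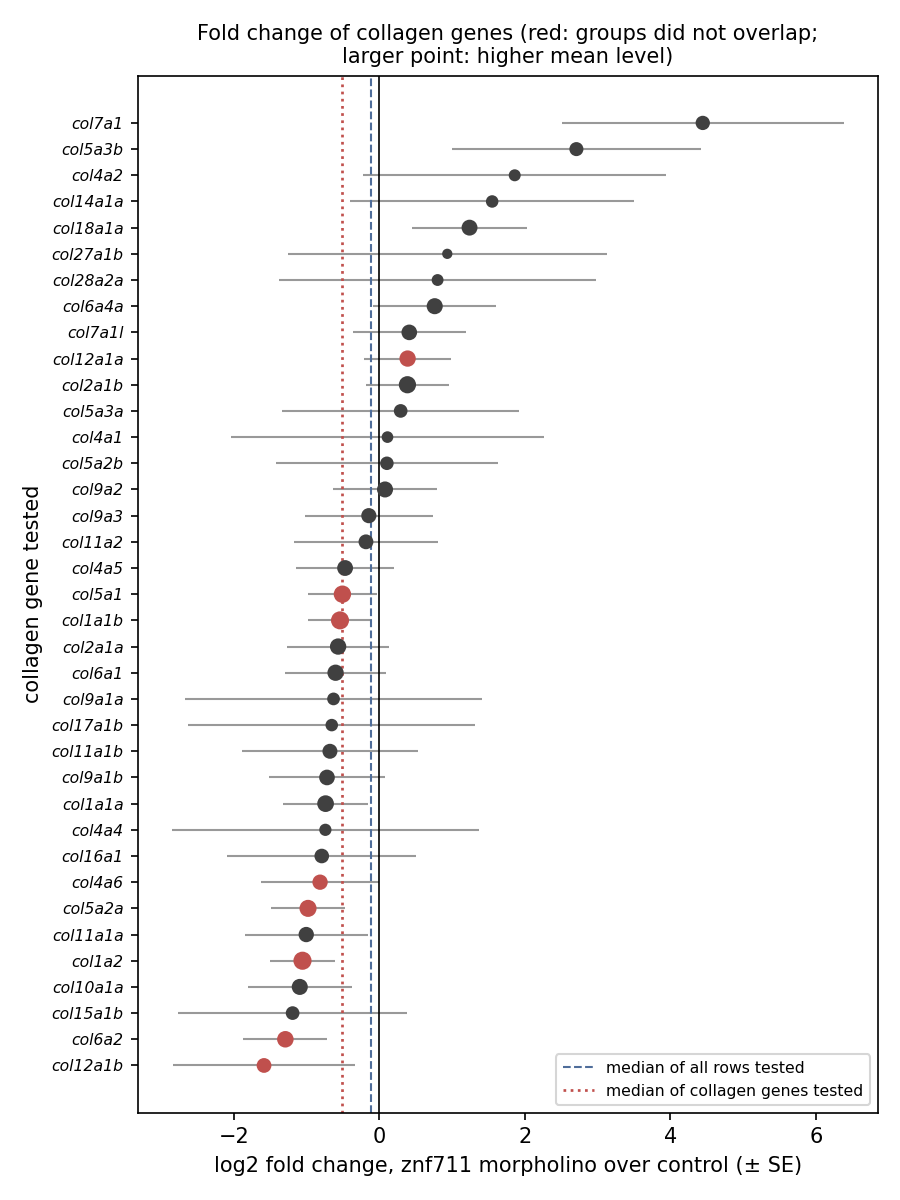
Log2 fold change of the 37 tested collagen genes, morpholino over control, with approximate standard errors. Points are larger for genes of higher mean level and red where the groups did not overlap. The dotted line at -0.51 is the median of the collagen genes and the dashed line at -0.12 that of all rows tested.

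Type I collagen, the main fibre of skin and bone, was lower in all 3 of its genes on average. The gene col1a2 (ENSDARG00000020007, GRCz11 chromosome 19, 40983221 to 41002980, plus strand), which encodes the α2 chain, was at 130.4, 155 and 128 CPM in morpholino replicates 1 to 3, against 360.1, 305 and 194 CPM in control replicates 1 to 3. The highest morpholino library thus lay below the lowest control library. Its log2 fold change was -1.06 ± 0.45 (SE), and it ranged from -1.30 to -0.87 when each library was left out in turn. The gene col1a1b (ENSDARG00000035809, chromosome 12, 3095699 to 3133483, minus strand) was at 180.3, 173 and 129 CPM in morpholino replicates 1 to 3, against 229.7, 229.8 and 241 CPM in control replicates 1 to 3. Its control libraries lay close together and all above the morpholino libraries, with a log2 fold change of -0.54 ± 0.44. Its paralogue col1a1a (ENSDARG00000012405, chromosome 3, 23221047 to 23239458, plus strand) was at 69.8, 68.6 and 25.4 CPM in morpholino libraries and 115, 91.7 and 65.9 CPM in control libraries. Its groups overlapped, because control replicate 3 lay below morpholino replicates 1 and 2. Summed over the 3 genes, type I collagen stood at 380.5, 396.5 and 282 CPM in morpholino replicates 1 to 3, against 705, 627 and 501 CPM in control replicates 1 to 3.

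Type I collagen is assembled from the chains of these genes, and the balance of the chain transcripts can be read from FPKM. The summed FPKM of col1a1a and col1a1b was 1.93, 1.56 and 1.22 times that of col1a2 in morpholino replicates 1 to 3, against 0.959, 1.06 and 1.59 times in control replicates 1 to 3. The ratios of the groups overlapped, with control replicate 3 above morpholino replicates 2 and 3. In every library col1a1a had the lower level of the col1a1 pair, at 0.184 to 0.370 of col1a1b in morpholino libraries and 0.255 to 0.467 in control libraries.

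Type V collagen starts and limits the width of type I fibrils. Its α1 chain gene col5a1 (ENSDARG00000012593, chromosome 21, 6556635 to 6725780, plus strand) was at 68.2, 106 and 118 CPM in morpholino replicates 1 to 3, against 136, 149.8 and 131 CPM in control replicates 1 to 3. Its α2 chain gene col5a2a (ENSDARG00000031678, chromosome 9, 42653188 to 42696408, minus strand) was at 66.0, 46.7 and 80.8 CPM in morpholino libraries and 169, 125 and 88.1 CPM in control libraries. In both genes each morpholino library lay below each control library, but by a narrow margin between morpholino replicate 3 and control replicate 3. The log2 fold changes were -0.51 ± 0.48 for col5a1 and -0.98 ± 0.51 for col5a2a. The paralogue col5a2b was scarce, at 2.34 to 22.5 CPM in morpholino libraries and 7.13 to 10.9 CPM in control libraries. The α3 chain genes went different ways between single libraries. The gene col5a3a was at 0, 4.22 and 28.4 CPM in morpholino libraries and 9.57, 4.43 and 12.9 CPM in control libraries. The gene col5a3b was at 55.3, 5.81 and 4.27 CPM in morpholino libraries and 0, 5.16 and 4.73 CPM in control libraries, so that its log2 fold change of 2.71 ± 1.71 was 0.61 without morpholino replicate 1.

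Types II and XI form the fibrils of cartilage and of the notochord sheath. The type II gene col2a1b (ENSDARG00000011407, chromosome 11, 32007 to 55224, minus strand) was at 187, 91.4 and 83.9 CPM in morpholino replicates 1 to 3, against 136, 104 and 37.2 CPM in control replicates 1 to 3. Its paralogue col2a1a was at 9.66, 68.8 and 58.1 CPM in morpholino libraries and 73.3, 48.4 and 81.6 CPM in control libraries. Both overlapped between the groups, and the type II sum was 142 to 197 CPM in morpholino libraries and 119 to 209 CPM in control libraries. The log2 fold change of col2a1b was 0.39 ± 0.57 and turned to -0.090 without morpholino replicate 1 and to -0.065 without control replicate 3. Of type XI, col11a1a was at 16.1, 28.8 and 12.04 CPM in morpholino libraries and 57.7, 28.3 and 28.4 CPM in control libraries, with a log2 fold change of -1.004 ± 0.84. The genes col11a1b and col11a2 had log2 fold changes of -0.68 ± 1.21 and -0.18 ± 0.98. The scarce fibrillar gene col27a1b had 0, 16 and 32 counts in morpholino libraries and 2, 18 and 0 counts in control libraries.

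**Figure D3:**
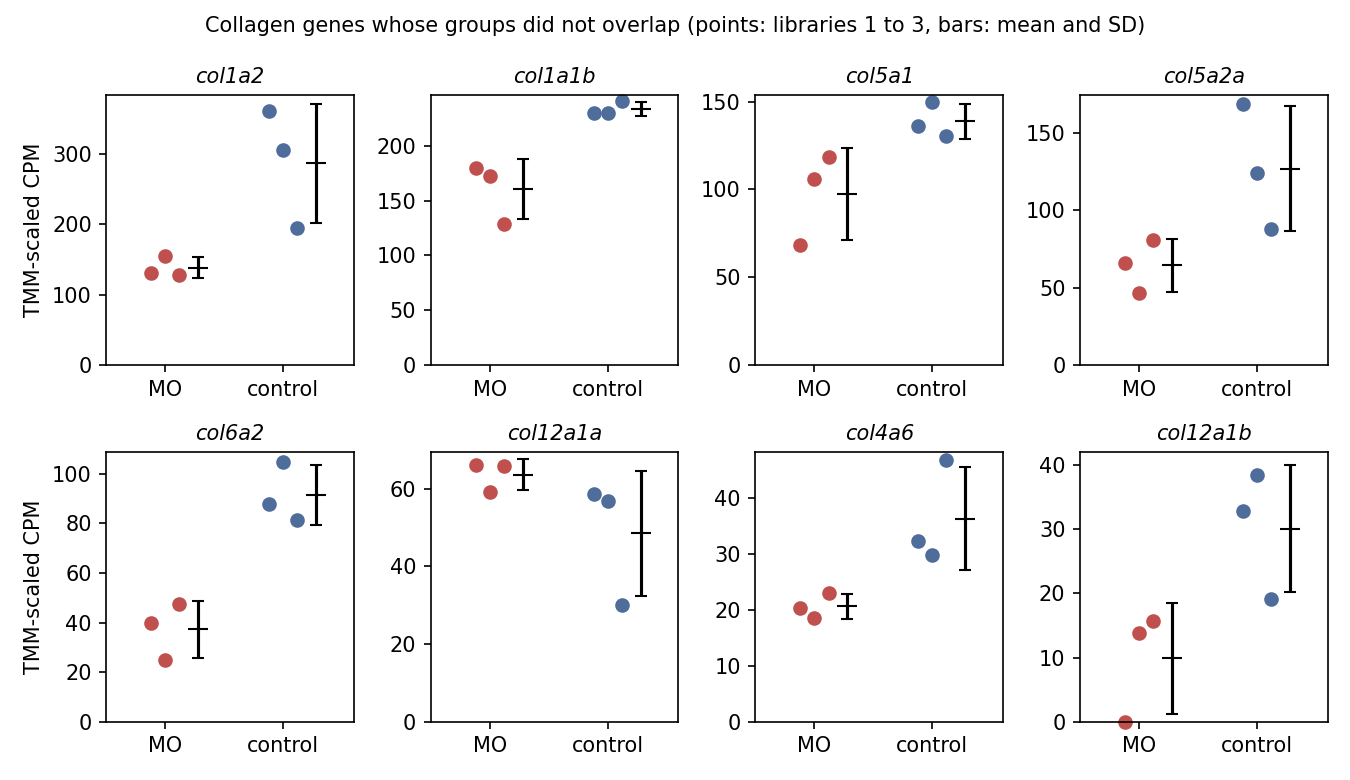
TMM-scaled CPM of the 8 collagen genes whose groups did not overlap, with morpholino libraries (MO) left of control libraries. Points are replicates 1 to 3 from left to right, and bars give the mean and SD. Only col12a1a has its morpholino libraries above its control libraries, by a margin of 59.1 against 58.7 CPM.

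Type VI collagen makes beaded filaments that link cells to the matrix around them in muscle and tendon. The gene col6a2 (ENSDARG00000061436, chromosome 11, 33921358 to 33960318, minus strand) was at 39.7, 24.9 and 47.4 CPM in morpholino replicates 1 to 3, against 87.9, 105 and 81.3 CPM in control replicates 1 to 3. The gap between the groups was wide, the log2 fold change was -1.29 ± 0.57, and it stayed between -1.51 and -1.14 when single libraries were left out. Its neighbour col6a1 lies on the same strand, 36208 bases away. This gene was at 10.7, 43.6 and 75.8 CPM in morpholino libraries and 64.3, 70.5 and 63.6 CPM in control libraries, and its highest library was morpholino replicate 3. The FPKM of col6a1 was 0.286, 1.85 and 1.69 times that of col6a2 in morpholino libraries and 0.773, 0.711 and 0.828 times in control libraries. The ratio was thus alike in morpholino replicates 2 and 3 and lower in morpholino replicate 1. In that library, the shallowest, col6a1 had 20 counts. The gene col6a4a was at 144, 16.3 and 17.3 CPM in morpholino libraries and 57.9, 26.6 and 19.7 CPM in control libraries, so that morpholino replicate 1 alone was high. The beaded filament gene col28a2a had 0, 94 and 40 counts in morpholino libraries and 58, 4 and 0 in control libraries.

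The α3 chain gene col6a3 was listed at 0 in every library on both of its rows. Unnamed gene models on an alternate scaffold of chromosome 9, at the same numbered positions as col6a3, did have counts. The longest of these, of 10333 bases at 23914316 to 23924885, had 2, 73 and 29 counts in morpholino replicates 1 to 3 and 28, 209 and 120 counts in control replicates 1 to 3. Whether these models are col6a3 transcripts was not tested, since no genome was used here. With the counts of all 9 such models taken as col6a3, the log2 fold change was -2.01 ± 1.44 (edgeR adjusted p = 0.9998). Models of this kind with counts also lay at the positions of col11a1a, col9a1b, col27a1b and col8a1a. Adding them moved the log2 fold change of col11a1a to -0.52, that of col9a1b to -0.85 and that of col27a1b to 1.13. At col8a1a, whose own row was at 0, they held 1 count, in control replicate 2.

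The FACIT genes sit on the fibrils of other collagens. Type XII lies on type I fibrils of fascia and tendon, and its paralogues differed in sign. The gene col12a1b (ENSDARG00000019601, chromosome 20, 49451764 to 49681850, minus strand) was at 0, 13.9 and 15.7 CPM in morpholino replicates 1 to 3, against 32.7, 38.4 and 19.1 CPM in control replicates 1 to 3. The gene col12a1a (ENSDARG00000078322, chromosome 17, 49785495 to 49978986, minus strand) was at 66.0, 59.1 and 65.8 CPM in morpholino libraries, against 58.7, 56.9 and 30.0 CPM in control libraries. Their log2 fold changes were -1.58 ± 1.25 and 0.39 ± 0.60, and the difference between them was not tested. The groups of col12a1a overlapped with the RLE, upper quartile or TMMwsp scaling. Type IX decorates type II fibrils in cartilage, and all 4 of its genes overlapped between the groups. Its most abundant gene by CPM, col9a2, was at 86.4, 42.0 and 14.4 CPM in morpholino libraries and 50.5, 42.8 and 41.3 CPM in control libraries. The log2 fold change of col9a2 was 0.08 ± 0.72, and those of col9a1a, col9a1b and col9a3 were -0.63 ± 2.04, -0.72 ± 0.79 and -0.14 ± 0.88. The type XIV gene col14a1a was at 0, 10.2 and 11.6 CPM in morpholino libraries and 0.709, 1.11 and 5.71 CPM in control libraries, a log2 fold change of 1.55 ± 1.95. The type XVI gene col16a1 was at 0, 15.7 and 23.3 CPM in morpholino libraries and 25.6, 19.7 and 22.8 CPM in control libraries.

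Type IV collagen forms the sheet of basement membranes, and its genes lie in pairs on opposite strands. The pair col4a5 and col4a6 on chromosome 7 had a gap of 753 bases between the annotated genes, on opposite strands. The gene col4a6 (ENSDARG00000052061, 50920437 to 51102479, minus strand) was at 20.4, 18.6 and 23.003 CPM in morpholino replicates 1 to 3, against 32.4, 29.8 and 46.8 CPM in control replicates 1 to 3. Its partner col4a5 (ENSDARG00000052063, 51103232 to 51194430, plus strand) was at 38.1, 28.4 and 35.1 CPM in morpholino libraries, against 37.9, 47.1 and 55.6 CPM in control libraries. Morpholino replicate 1 exceeded control replicate 1 in col4a5 by a small margin, so that this gene's groups touched while those of col4a6 did not. The FPKM of col4a5 was 2.001 to 2.448 times that of col4a6 in morpholino libraries and 1.53 to 2.07 times in control libraries, the steadiest ratio among the chain pairs examined here. The log2 fold changes were -0.81 ± 0.81 for col4a6 and -0.47 ± 0.67 for col4a5.

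The widely used type IV pair col4a1 and col4a2, on chromosome 9, was scarce. The gene col4a1 had 0, 26 and 68 counts in morpholino libraries and 50, 21 and 0 in control libraries. The gene col4a2 had 0, 99 and 78 counts in morpholino libraries and 32, 3 and 3 in control libraries, a log2 fold change of 1.86 ± 2.08. Their ratio differed widely between libraries, and morpholino replicate 1 had no count of either. The gene col4a4 had 0, 61 and 37 counts in morpholino libraries and 0, 26 and 78 in control libraries. Its span overlaps that of col4a3 on the other strand by 538 bases, and since the use of strand is not stated, reads there cannot be assigned to either gene with certainty.

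The type VII genes and col18a1a had higher values in morpholino replicate 1 than in any other library. Type VII forms the fibrils that anchor epidermis, and col7a1 (ENSDARG00000021720, chromosome 6, 40184235 to 40312091, minus strand) was at 73.0, 2.72 and 9.51 CPM in morpholino replicates 1 to 3, against 0, 3.81 and 0 CPM in control replicates 1 to 3. Its counts were 136, 29 and 98 in morpholino libraries and 0, 31 and 0 in control libraries. The log2 fold change was 4.44 ± 1.94, and it came to 2.24 without morpholino replicate 1 and to 10.57 without control replicate 2, where both remaining control libraries are at 0. Its relative col7a1l was at 69.8, 22.5 and 26.9 CPM in morpholino libraries and 41.7, 20.2 and 27.3 CPM in control libraries. The counts of col7a1l are uncertain, because 3 other annotated genes with counts overlap its span on the same strand. The reference gene names give the symbol col7a1l to 1 of these as well. That gene had 0, 70 and 52 counts in morpholino replicates 1 to 3 and 143, 46 and 242 in control replicates 1 to 3. Its counts lean the other way and were not added to those of col7a1l. The multiplexin gene col18a1a, whose protein carries endostatin at its end, was at 120.2, 24.9 and 33.3 CPM in morpholino libraries and 41.0, 12.8 and 21.4 CPM in control libraries. Its log2 fold change was 1.24 ± 0.79 and ranged from 0.20 to 1.77 when single libraries were left out.

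The other multiplexin gene, col15a1b, found in basement membranes of muscle and vessels, was at 0, 6.09 and 12.2 CPM in morpholino libraries and 22.7, 9.10 and 10.8 CPM in control libraries. The type X gene col10a1a (ENSDARG00000054753, chromosome 17, 15542077 to 15546862, minus strand), known from maturing cartilage and bone, was at 58.0, 15.7 and 16.8 CPM in morpholino replicates 1 to 3, against 88.5, 50.2 and 52.7 CPM in control replicates 1 to 3. Morpholino replicates 2 and 3 lay well below all controls, whereas morpholino replicate 1 lay above control replicates 2 and 3. The log2 fold change of col10a1a was -1.09 ± 0.72, and without morpholino replicate 1 it was -1.98. Type XVII is a transmembrane collagen of the hemidesmosomes of basal epidermis. Of its genes, col17a1b had 0, 28 and 91 counts in morpholino libraries and 140, 4 and 8 in control libraries, so that a single control library held most of them. The gene col17a1a had 0, 29 and 10 counts in morpholino libraries and 0, 85 and 1 in control libraries, and was measured but too low to be tested.

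The measured genes nearest to the limit of 10 counts in 3 libraries were col17a1a, col27a1b and col4a1, with 10, 16 and 26 counts in the library that ranked 3 from the top. Just outside it were col24a1, with 0, 1 and 7 counts in morpholino libraries and 22, 1 and 40 in control libraries, and col21a1, with 0, 0 and 27 counts and 6, 11 and 2 counts. The type IV gene col4a3 followed with 0, 13 and 0 counts in morpholino libraries and 5, 1 and 0 in control libraries. The genes col8a2, col10a1b, col14a1b, col18a1b and col22a1 had counts in only 1 or 2 libraries. The rows at 0 in all libraries were those of col6a3 and col19a1, with 2 rows each, and those of col8a1a, col8a1b, col28a1a, col28a1b and col28a2b. A further 4 genes that the reference table of gene names calls collagens carry other symbols in the files, lie outside the rule and were not counted among the 55.

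Summed over the members of a class, the fibrillar collagens came to 824, 799 and 719.98 CPM in morpholino replicates 1 to 3, against 1369, 1154 and 926 CPM in control replicates 1 to 3, with no overlap. The basement membrane collagens, all of type IV, summed to 58.5, 65.6 and 75.9 CPM in morpholino libraries and 80.6, 83.1 and 116 CPM in control libraries, also with no overlap. Both separations were lost with scaling to library totals, where the fibrillar sum came to 942, 705 and 777 CPM in the morpholino libraries, against 1613, 1008 and 743 CPM in the control libraries. The type I and type V sums then overlapped too. The FACIT, beaded filament, anchoring fibril, multiplexin, network and transmembrane sums overlapped. All collagens together summed to 1362 ± 202 CPM in the morpholino group and 1812 ± 336 CPM in the control group (SD, n = 3 each). The 2 groups overlapped in this total, because control replicate 3, at 1492 CPM, lay below morpholino replicate 1, at 1593 CPM. A sum over chosen members was given no test.

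**Figure D4:**
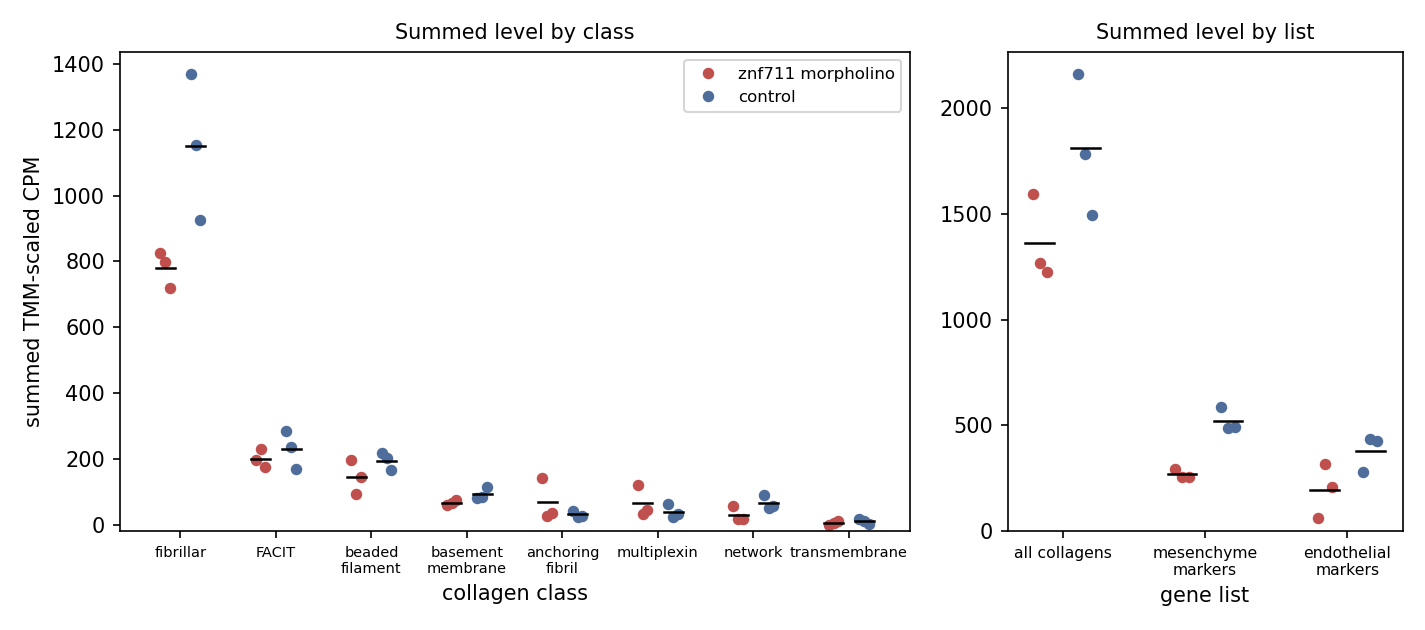
Summed TMM-scaled CPM by collagen class (left) and for all collagens and 2 lists of cell type markers (right), with 1 point per library, replicates 1 to 3 from left to right, and black lines at group means. The fibrillar sum is 719.98 to 824 CPM in morpholino libraries and 926 to 1369 CPM in control libraries, and the mesenchyme markers separate in the same direction. With scaling to library totals the fibrillar sums overlap and the mesenchyme sums do not.

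Markers of several cell types that usually make collagen were present in these libraries. Those of mesenchyme and endothelium leaned lower in the morpholino group, whereas the tested markers of cartilage and epidermis did not. The tested notochord and mural cell markers were negative in 2 of 4 and 3 of 5 genes, with medians of -0.28 and -0.72. Of 16 markers of fibroblasts and mesenchyme, 12 were measured and none was at 0 in all libraries. Their sum was 257 to 294 CPM in morpholino libraries and 486 to 588 CPM in control libraries, and 10 of the 12 tested had negative log2 fold changes, where 55.7% of all rows did, with a median of -0.96. In 5 of them, foxc1b, lum, pdgfra, twist1a and twist1b, the morpholino libraries all lay below the control libraries, as they did in 5.35% of all rows. With scaling to library totals the sums of the list still did not overlap, while pdgfra and twist1b did. The receptor gene pdgfra was at 28.4, 19.8 and 42.2 CPM in morpholino replicates 1 to 3, against 102, 51.4 and 55.3 CPM in control replicates 1 to 3. Endothelial markers summed to 62.8, 316 and 208 CPM in morpholino replicates 1 to 3, against 282, 434 and 426 CPM in control replicates 1 to 3. These sums overlapped, but not with scaling to library totals. They then came to 71.8, 279 and 224 CPM in morpholino libraries, against 332, 379 and 342 CPM in control libraries. The lowest sum was that of the shallowest library, morpholino replicate 1, where etv2, pecam1 and stab1 had 0 counts and fli1a had 6. Of 11 tested genes, 10 were negative against 55.7% of all rows, with a median of -0.85, and flt1 was at 0 throughout. Among them 1 gene, tie1, lay lower without overlap, as did 5.35% of all rows. With scaling to library totals tie1 was at 0, 5.87 and 5.97 CPM in morpholino libraries, against 17.1, 9.56 and 12.3 CPM in control libraries. No gene of either list passed the test. The part of these cells in the collagen values was not tested.

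Markers of cartilage, osteoblasts, notochord, epidermis and mural cells had sums that overlapped between the groups. Cartilage markers summed to 91.0 to 261 CPM in morpholino libraries and 122 to 254 CPM in control libraries, with snorc at 0. Of 6 tested cartilage genes 4 were positive, while the most abundant, matn4, was at -0.71 ± 0.64 (SE). The untested gene acana had 0 counts in each morpholino library, against 70, 6 and 13 counts in control replicates 1 to 3. The untested gene acanb had 85 counts in control replicate 1 and 0 in every other library. Notochord markers summed to 49.1 to 158 CPM and 51.1 to 125 CPM, with noto and mia at 0 in all libraries. Osteoblast markers were near absent, at 1.07 to 22.005 CPM and 3.10 to 25.9 CPM, with bglap, runx2a and runx2b at 0. In each of these 3 lists the libraries of replicate 1 had the highest sum of their group. Epidermal markers summed to 182 to 442 CPM in morpholino libraries and 148 to 412 CPM in control libraries, with krt5, epcam, cldni and itga6b at 0. Mural cell markers summed to 254 to 692 CPM and 303 to 544 CPM. The median log2 fold changes were 0.14 for cartilage, -0.28 for notochord, 0.14 for epidermis and -0.72 for mural cells, and the 1 tested osteoblast gene, phex, was at -4.33, with every morpholino library below every control library. Of the other lists, the mural cell gene acta2, the macrophage gene cd74a and the muscle gene acta1a also lay lower without overlap, and the neural gene gfap and the muscle gene myhz2 lay higher. Over all rows, 5.35% lay lower and 2.09% higher without overlap. With scaling to library totals acta2 overlapped. On that scale cd74a was at 1.18 CPM in control replicate 2, below the limit of 1.84 CPM for a count of 0 in morpholino replicate 1. Skeletal muscle, erythroid, neural and macrophage markers had medians of 1.09, 0.42, 0.30 and 0.32, and neutrophil markers 0.44, with the muscle genes mylpfa, pvalb2 and tnnc2 at 0 throughout. None of these genes passed.

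The genes that act on collagen did not share one direction, and 0 passed in any list. Of all rows, 55.7% were negative, and 5.35% lay lower without overlap. Among enzymes and chaperones that modify collagen chains, 8 of 15 tested were positive and 7 negative, with a median log2 fold change of 0.00. The sums of this list were 1366 to 3238 CPM in morpholino libraries and 3247 to 4113 CPM in control libraries. They did not overlap, except under scaling to library totals. The collagen chaperone gene serpinh1b, the most abundant of them, was the only tested gene of the list without overlap. It was at 1974, 1490 and 819 CPM in morpholino replicates 1 to 3, against 2765, 3048 and 2131 CPM in control replicates 1 to 3, with no overlap and a log2 fold change of -0.89 ± 0.45. With scaling to library totals its groups overlapped. Genes of procollagen export had 6 of 11 positive and a median of 0.12, with sec23b, a coat protein of secretory vesicles, at 222 ± 83.2 CPM in the morpholino group and 183 ± 91.1 CPM in the control group (SD, n = 3 each). Of the processing proteases and their helpers only 2 were tested. The sums of that list were 58.0 to 83.2 CPM in morpholino libraries and 83.9 to 97.1 CPM in control libraries. These sums did not overlap, except under scaling to library totals. The enhancer gene pcolcea, which speeds the removal of the C-terminal propeptide, was at 24.7, 43.1 and 31.8 CPM in morpholino libraries, against 60.0, 63.1 and 64.8 CPM in control libraries. Its log2 fold change was -0.91 ± 0.63. Cross-linking enzymes had 4 of 5 positive and a median of 0.32, and loxl3b was the most abundant, at 27.7 ± 10.3 CPM and 22.7 ± 9.14 CPM.

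Partners of collagen fibrils leaned the same way as the fibrillar genes. Of 11 tested, 8 were negative, with a median of -0.60, against 55.7% negative and a median of -0.12 over all rows. The sums of the list overlapped, at 566 to 885 CPM in morpholino libraries and 830 to 1116 CPM in control libraries. The fibromodulin gene fmoda, whose protein binds fibrils, was at 60.6, 81.0 and 70.7 CPM in morpholino replicates 1 to 3, against 105, 151 and 133 CPM in control replicates 1 to 3. The proteoglycan gene lum, which stands on the mesenchyme list too, was the other fibril partner without overlap. Over all rows, 5.35% lay lower without overlap. The most abundant partner, the periostin gene postnb, was at 101.4, 142 and 88.0 CPM in morpholino libraries and 220, 249 and 133 CPM in control libraries, and overlapped. Of the other proteins of basement membranes, 9 of 13 tested genes were positive, with a median of 0.41. Their sums overlapped, at 198 to 306 CPM in morpholino libraries and 179 to 272 CPM in control libraries. The most abundant gene of this list, lama4, a laminin chain gene, was lower on average. It was at 35.8 ± 18.3 CPM in the morpholino group and 52.5 ± 28.9 CPM in the control group. The laminin gene lamb1a was at 0, 47.0 and 31.8 CPM in morpholino libraries, against 54.2, 49.3 and 51.7 CPM in control libraries.

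Collagen receptors had 6 of 9 negative and a median of -0.26. Over all rows, 55.7% were negative, with a median of -0.12, while 5.35% lay lower and 2.09% higher without overlap. The integrin gene itgb1b was at 48.1 ± 63.2 CPM in the morpholino group and 20.8 ± 10.4 CPM in the control group. Genes of TGF-β signalling, a pathway known to raise collagen transcription, had 8 of 12 negative and a median of -0.28. The matricellular gene ccn1, the most abundant of that list, was at 260, 351 and 340 CPM in morpholino replicates 1 to 3, against 508, 641 and 378 CPM in control replicates 1 to 3, with no overlap except under scaling to library totals. Collagenases and their relatives had 9 of 11 positive and a median of 0.47. The gelatinase gene mmp2 was at 159, 59.1 and 64.5 CPM in morpholino replicates 1 to 3, against 42.7, 33.4 and 27.4 CPM in control replicates 1 to 3, every morpholino library above every control library, with a log2 fold change of 1.44 ± 0.61. The neutrophil gelatinase gene mmp9 had the highest level of the list, at 352, 2481 and 5024 CPM in morpholino libraries and 128, 2499 and 3037 CPM in control libraries, and overlapped.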

How the data were processed

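The authors deposited raw counts per gene and FPKM values (fragments scaled by gene length and library total) for 59330 rows, of which 26810 were unnamed gene models. Per the submitters' processing notes, the build was GRCz11 and the tools included HISAT2 2.0.5, Trimmomatic, DESeq2 1.16.1, edgeR and HTSeq. The use of strand in counting is not stated. For measured collagen genes the deposited FPKM was 1.0 to 2.659 times (median 1.475) the value from the count, listed length and total, so another length was used. Differences were tested here with edgeR 4.0.16 (quasi-likelihood, robust, filterByExpr with a minimum count of 10, TMM, group as the only term), with Benjamini-Hochberg adjustment over all 16637 rows, under R 4.3.3. DESeq2 1.42.0 and limma 3.58.1 were alternatives, as were other scalings, filters, a replicate block and leaving out libraries. The fit was tested on simulated data, in which, at the spread of these libraries, it left most of the smaller planted changes and many of the larger ones uncalled. Standard errors were derived from each log2 fold change and its F statistic, and the common biological coefficient of variation was 1.09.

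Levels are TMM-scaled CPM. Collagen genes and chain pairs are compared in level by FPKM. The most abundant gene of each type or list, the class shares and the division by level used CPM, without correction for length. Every library's value was given for the most abundant gene of each collagen type, genes whose groups did not overlap, those with an unadjusted p under 0.05, those with the 5 most positive and 5 most negative log2 fold changes and those nearest the count limit; other genes were added for their place in a pair or class. The members, classes and gene lists were chosen with earlier results of these data known. The reference table of gene names held 53 of the 55 IDs. No sequences are shown.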

Additional observations from a re-analysis of the deposited data

How the results depend on the processing

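No collagen gene passed the threshold under any of 20 alternative settings. The median log2 fold change ranged from -0.63 to -0.24 with 1 library left out and was -0.12 without replicate 1 of both groups. The median of all rows was then -0.37 to -0.03 and 0.02. The count of collagen genes lying lower without overlap was 3 with scaling to library totals, 8 to 12 with 1 library left out and 11 without replicate 1 of both groups, where the share of all rows doing so was 4.35%, 7.15% to 13.3% and 14.5%. Over all rows, the count called higher was 116 by DESeq2, 2 without a filter on low counts and 0 to 2 with 1 library left out, and the count called lower was 29 by DESeq2 and 0 to 1 with 1 library left out. The 2 higher rows came without morpholino replicate 3 and the 1 lower row without control replicate 1. The log2 fold change of col17a1b was 0.054 by limma-voom, 1.35 with quality weights, 0.93 with the replicate block, 2.66 without replicate 1 of both groups and -2.10 to 2.08 with 1 library left out. That of col7a1l was -0.0837 by limma-voom, -0.0218 with quality weights and -0.28 to 0.72 with 1 library left out. That of col9a2 was -0.69 by limma-voom, -0.59 with quality weights, -0.0002 without mitochondrial, haemoglobin and ribosomal protein genes, -0.24 with the replicate block, -0.57 without replicate 1 of both groups and -0.68 to 0.51 with 1 library left out. With 1 library left out, col2a1b ranged from -0.0896 to 0.75, col27a1b from -0.0344 to 3.54 and col28a2a from -0.28 to 4.0002, and without replicate 1 of both groups col28a2a was at 4.57. The cause was not tested. Of 480 values for 24 collagen genes, 460 kept their direction and 20 reversed. Same-numbered libraries correlated at 0.135, 0.112 and 0.014 in their deviations from group means. Libraries of different numbers correlated at -0.136 to 0.075. The labels state no pairing, so the main fit did not take the numbers as pairs. Whether same-numbered libraries share an effect was not tested. With the replicate block 0 rows were called, and the median of the collagen genes was -0.46 against -0.30 for all rows. In morpholino replicate 1, the shallowest library, 14 measured collagen genes were at 0, some of them well above its limit of 1.61 CPM in the other libraries. The cause was not tested.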
